A study of Mus musculus with 4 samples.

Results

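Transcript levels of 55 genes named for methylation enzymes were followed in the pancreatic islets of newborn mice whose m6A writer genes were targeted. The 55 genes are all those in the deposited table of 22481 gene symbols whose names begin with Mettl (27 genes), Nsun (6), Trmt (15) or Alkbh (7), without Mettl3, Mettl14, Mettl16 and Alkbh5. The 4 libraries were made from islet total RNA of 129sv mice at postnatal day 0, with 2 libraries labelled Mettl3/14nKO, called the targeted libraries here, and 2 labelled Wild-Type. The series was set up to look at RNA modification in such islets, and the question here was whether other methylation enzymes shift when the m6A writers are targeted. The sources used here do not give the promoter or cell type that drives the deletion, the exons removed, or whether a group's libraries stem from different animals. P-values therefore measure only the spread between these libraries, which may be technical.

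A methyltransferase moves a methyl group from S-adenosylmethionine to its substrate, and the Alkbh proteins are iron-dependent dioxygenases that can take such groups off again. Nsun enzymes place 5-methylcytosine on RNA, and Trmt enzymes methylate transfer RNA, where such marks steady the folded molecule and help it read codons. In islets, tRNA modification is best known from the human diabetes gene CDKAL1 and from TRMT10A, whose loss causes early-onset diabetes in people. The shared name does not make every Mettl gene an RNA enzyme. By what their proteins are known to do, 19 of the 55 genes act on cytosolic tRNA, 8 on RNA in mitochondria and 3 on ribosomal or small nuclear RNA, while 14 act on proteins, 4 on small molecules, 2 repair alkylated nucleic acid and 5 are less well defined. The GENCODE M21 annotation lists the genes called Mettl10, Mettl20, Mettl21b and Mettl21d in the table as Eef1akmt2, Etfbkmt, Eef1akmt3 and Vcpkmt, after the proteins they methylate. The label of RNA methylation enzymes therefore holds for part of these genes only.

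The libraries were shallow, with 1216498 (replicate 1) and 744016 (replicate 2) targeted fragments against 1255526 and 1617429 wild-type fragments. Of these, the 55 genes together took 1009, 635, 1027 and 1305 fragments. In CPM, which are fragments scaled to a common library total, this was 829 (95% exact binomial interval 779 to 882) and 853 (788 to 922) in targeted islets and 818 (769 to 870) and 807 (764 to 852) in wild-type islets. The intervals cover counting error only, and they overlap between all 4 libraries. Neither Mettl3 (edgeR log2 fold change -0.25, adjusted p = 0.849) nor Mettl14 (-0.71, adjusted p = 0.308) passed a test after adjustment. Targeted Mettl14 values lay below wild-type values without overlap, at 19.7 and 16.1 against 25.5 and 33.4 CPM. The Mettl14 interval (95%, -1.41 to -0.003) excluded 0. Mettl3 overlapped in CPM, at 24.7 and 12.1 against 15.9 and 29.1. In FPKM, which also divide by transcript length, both genes were lower without overlap. Of all genes tested, 22.6% were lower without overlap in CPM and 35.4% in FPKM. Gene totals therefore do not settle the genotype labels at this depth. Islet markers were abundant in every library, with a sum over 6 beta cell markers of 37480 and 46616 CPM in targeted and 71686 and 75182 CPM in wild-type islets. The libraries also differed in markers of other cells. Summed over 10 endothelial markers the level was 460 and 289 CPM in targeted against 1259 and 1071 in wild-type islets, over 12 leukocyte markers 340 and 618 against 62.1 and 133, and over 10 mesenchymal markers 11511 and 7918 against 5318 and 3858. With edgeR, 7 of the 10 endothelial and 3 of the 6 beta cell markers were called lower. Of the mesenchymal markers 7 of 10 were called higher, and of the leukocyte markers 5 of 12. No marker of these lists was called the other way. None of the tested alpha, delta, acinar or cycling cell markers was called, and of all genes tested 3.71% were. The part of other cells in the values of the 55 genes was not tested. In such bulk samples fewer cells of a type and less RNA per cell cannot be told apart.

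Of the 55 genes, none that could be tested was called higher or lower between the genotypes by the test across all genes. With edgeR (quasi-likelihood test on fragments, Benjamini-Hochberg adjustment over all genes), 34 of the 55 had enough fragments to be tested, and 0 of the 34 reached an adjusted p of 0.05, the smallest being 0.221. Among all 10956 genes tested, 3.71% were called, 2.1% higher and 1.61% lower. At this share a set of 34 genes would hold few calls, so the count of 0 does not set the families apart from other genes. At an unadjusted p of 0.05 there were 3 of the 34 (8.82%), which were Trmt13, Mettl23 and Mettl1, against 15.9% of all genes. DESeq2 called 0 of 47 genes of the families (0 at an unadjusted p of 0.05), against 1.05% of all genes called and 5.52% at the unadjusted threshold. Limma was run on log2(FPKM + 1), where FPKM divides a gene's fragments by transcript length and library size. It called 0 of 44, and 2 of the 44 (Mettl23 and Alkbh7) had an unadjusted p under 0.05, against 0% and 12.1% of all genes.

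The changes of the 34 genes lay on both sides of 0, with 16 positive and 18 negative log2 fold changes, a median of -0.04 and a median of 0.00 over all 10956 genes. In CPM, 4 of the 34 (11.8%) had both targeted values below both wild-type values, and 9 (26.5%) had both above, against 22.6% and 22.6% of all tested genes. The lower genes were Mettl13, Mettl18, Mettl23 and Trmt13, and the higher ones Alkbh8, Mettl1, Mettl2, Mettl6, Nsun3, Nsun4, Trmt1, Trmt2a and Trmt2b. In FPKM, 13 of 44 (29.5%) lay below and 6 (13.6%) above, against 35.4% and 9.83% of all genes. The lean toward lower values in FPKM is thus one of all genes, whose median on the limma scale was -0.21, with -0.15 for the families. Libraries of the same genotype differed among themselves to a like degree: for the median tested gene, the absolute log2 ratio of CPM + 1 was 0.38 between the targeted replicates, 0.32 between the wild-type replicates and 0.23 between the means of the genotypes, which average 2 libraries each.

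**Figure D1:**
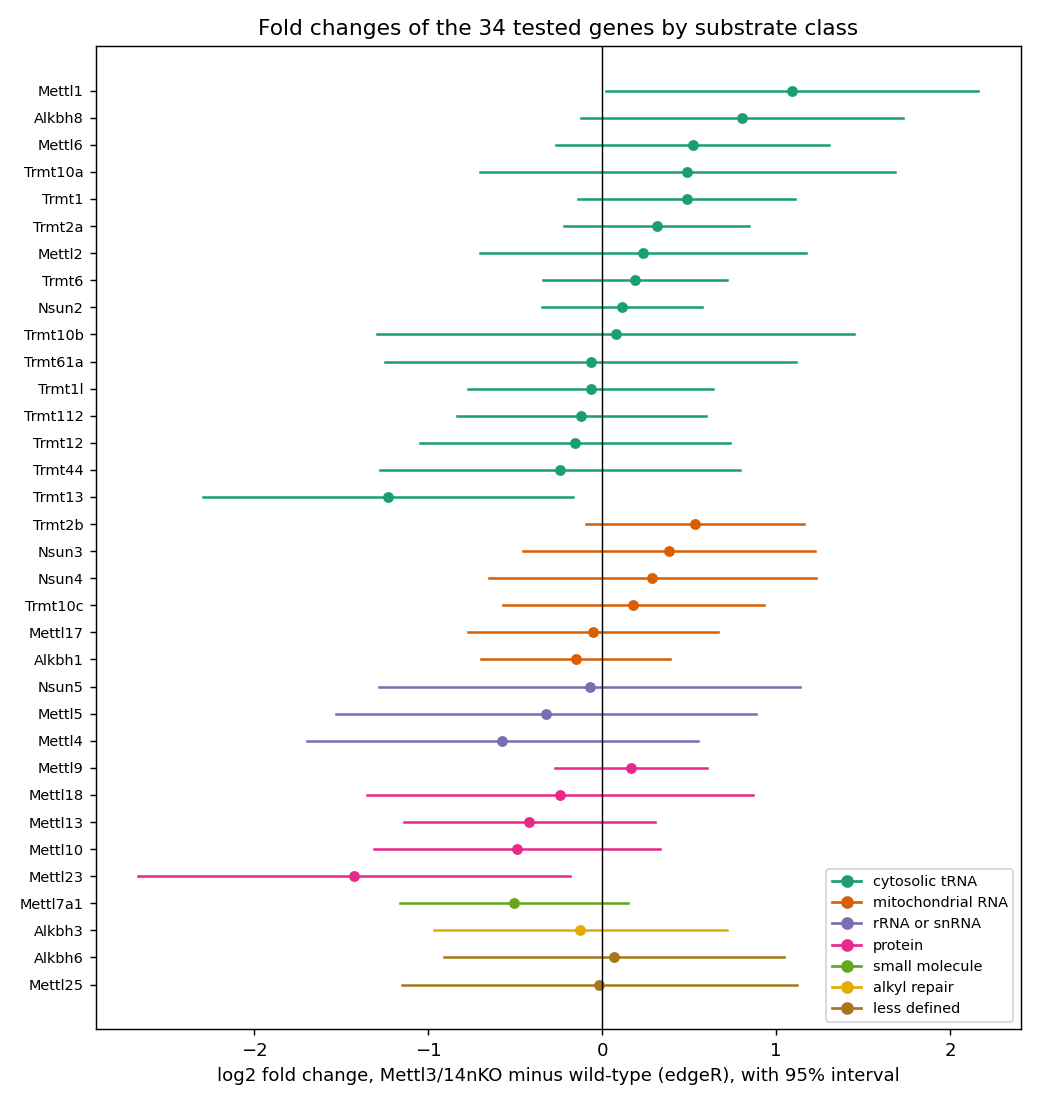
Log2 fold change of each of the 34 tested genes (x axis, Mettl3/14nKO minus wild-type, edgeR), with points for the estimate and bars for the 95% interval, coloured by the substrate class of the encoded protein. Of the 34 intervals 31 span 0, and those of Trmt13, Mettl23 and Mettl1 do not.

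How closely a change was measured differed from gene to gene. The 95% intervals are not adjusted for the number of genes tested, so a gene whose interval excludes 0 can still go uncalled. The 95% interval reached 0.44 log2 units to either side of the estimate for the gene measured best, Mettl9, 0.87 for the median gene and 1.37 for the gene measured worst, Trmt10b. For 10 of the 34 genes the whole interval lay between -1 and 1, a doubling or a halving, and for the others the interval also covered a change of that size in at least 1 direction.

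In wild-type islets the families were expressed at low to moderate levels. The mean wild-type FPKM ranged from 1.53 to 19.6 over the 34 tested genes, with a median of 4.46 against 8.58 for all genes tested. Of the 55 genes, 44 had a wild-type mean of at least 1 FPKM and 10 of at least 10 FPKM. Mettl9, which methylates histidine in proteins, had the highest mean, with 17.8 and 21.4 FPKM in the wild-type libraries. It was followed by Nsun2, the main 5-methylcytosine writer of cytosolic tRNA, with 12.6 and 19.1 FPKM, and by Trmt112, the small partner that steadies several methyltransferases, with 14.8 and 14.9 FPKM. The Trmt112 values fall between those of Nsun2, so these neighbours do not differ beyond their spread, and neither do Mettl9 and Nsun2, whose values overlap. Mettl10, which methylates the elongation factor eEF1A, stood at 11.6 and 17.6 FPKM, and Mettl7a1, a thiol methyltransferase of the endoplasmic reticulum and of lipid droplets, at 10.7 and 18.5 FPKM.

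**Figure D2:**
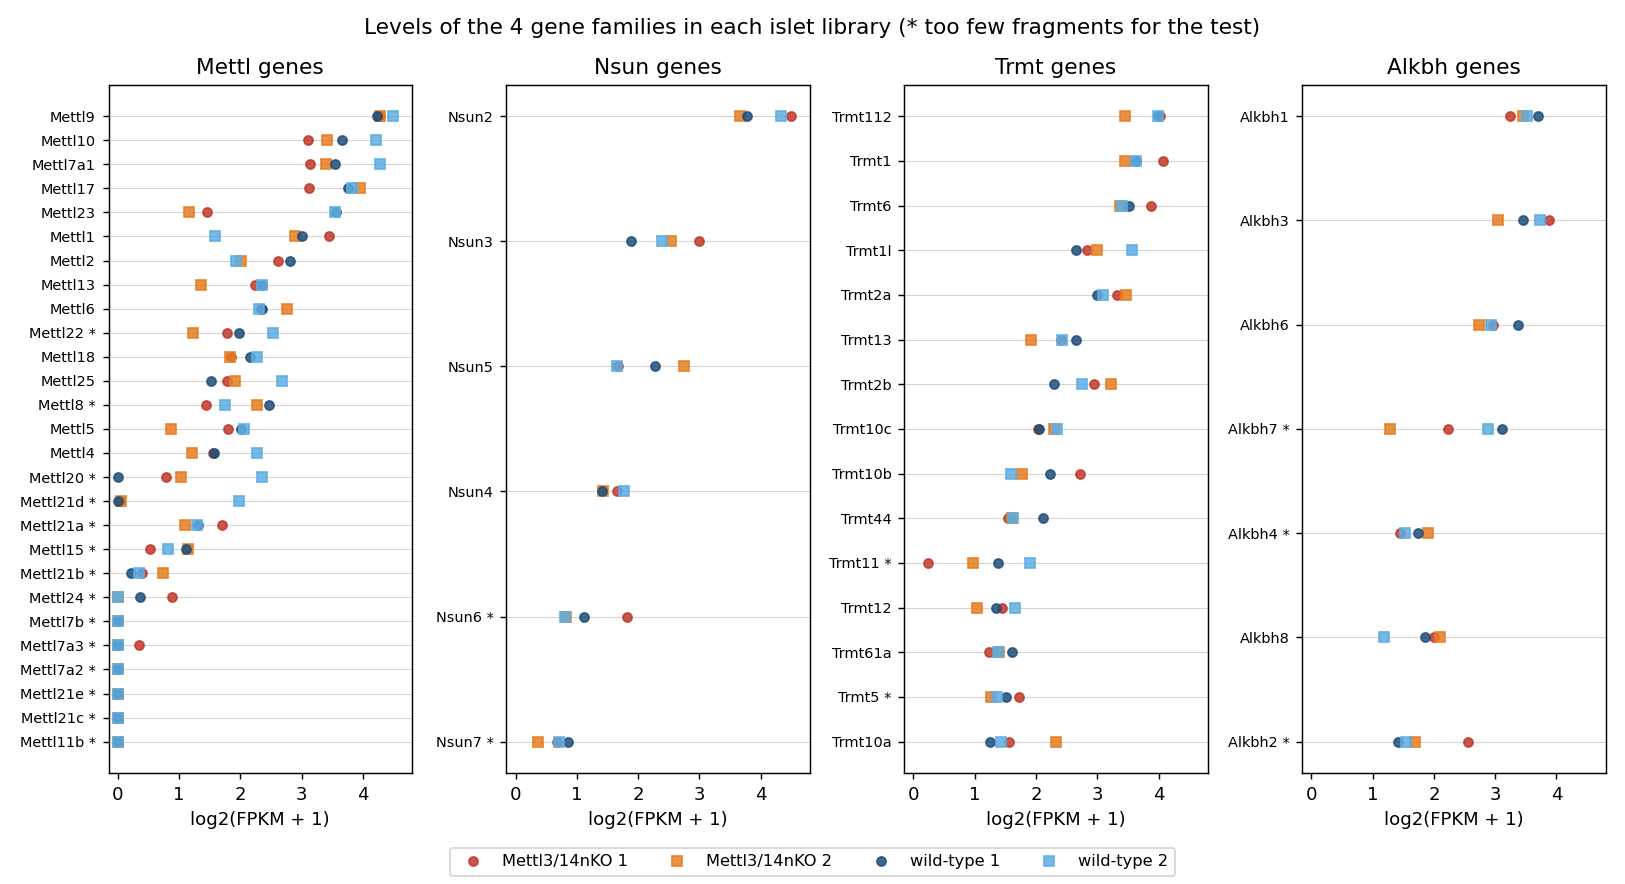
Transcript level of each gene as log2(FPKM + 1) (x axis) in the 4 libraries, by family, ordered by mean wild-type FPKM, with red and orange for Mettl3/14nKO and dark and light blue for wild-type replicates 1 and 2. Asterisks mark the 21 genes with too few fragments for the test, and the libraries of both genotypes are interleaved for most genes, while Mettl23 has both Mettl3/14nKO points far to the left of both wild-type points.

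Among the 13 Mettl genes tested with edgeR, Mettl23 had the log2 fold change farthest from 0, by an amount that depended on the unit. Mettl23 (ENSMUSG00000090266, mm10 chromosome 11, 116843278 to 116854263, plus strand) encodes an arginine methyltransferase that acts on histone H3. In FPKM, the targeted libraries stood at 1.75 and 1.23 and the wild-type libraries at 10.8 and 10.7. These values came from 5 and 3 fragments against 12 and 20, or 4.11 and 4.03 against 9.56 and 12.4 CPM. In both units the targeted values lay below the wild-type values without overlap. The wild-type mean was 7.22 times the targeted mean in FPKM and 2.69 times in CPM. On fragments the log2 fold change was -1.42 (SE 0.57, 95% interval -2.66 to -0.18) with an edgeR adjusted p of 0.223. On log2(FPKM + 1) it was -2.25 (SE 0.30) with a limma adjusted p of 0.0841, which placed Mettl23 as number 14 of 12213 genes by p, while on fragments it was number 1266 of 10956. The limma adjusted p of Mettl23 was 0.117 at a pseudocount of 0.1 and 0.374 without the filter on low FPKM, and over all 15 other settings its adjusted p ranged from 0.0841 to 0.9998. Limma called no gene at all, and its smallest adjusted p was 0.0709.

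The gap between the units can be read from the FPKM that each fragment was worth. For Mettl23 this value was shifted by -1.22 log2 units in targeted against wild-type libraries, after each library's typical gene was set to 0. Only 95 of 10878 genes (0.873%) with a fragment in every library shifted by at least 1 log2 unit between genotypes, and 2 of the 34 tested genes did so, Mettl23 and Trmt13. A spread over the 4 libraries with an SD above 0.25 log2 units was more common, at 10 of the 34 (29.4%) and 19.6% of all genes with 10 or more fragments in each library. A fragment is worth more FPKM when it is assigned to a shorter transcript. GENCODE M21 lists a protein-coding Mettl23 transcript of 1276 bases in 5 exons and another of 502 bases in 2 exons, together with transcripts that retain introns or are marked for decay. The deposited table has no values per transcript, so the part of transcript choice was not tested. Exons of Mettl23 also lie across its neighbours, sharing 172 bases with Jmjd6 and 460 with Srsf2 on the opposite strand and 257 with Mfsd11 on the same strand. Srsf2, a splicing factor gene, was far more abundant at 178 and 93 against 196 and 279 fragments, Jmjd6 stood at 49 and 35 against 42 and 71, and Mfsd11 at 60 and 29 against 67 and 84. None of the 3 neighbours passed with edgeR (adjusted p = 0.414, 0.869 and 0.718, log2 fold changes -0.27, 0.14 and -0.24). In FPKM, Mfsd11 stood at 11.2 and 17.0 targeted against 10.8 and 11.1 wild-type, so the targeted values were the higher ones. The FPKM per fragment of Mfsd11 was shifted by 0.84 log2 units, opposite in sign to Mettl23. The shift was -0.21 for Jmjd6 and -0.066 for Srsf2. Whether fragments of a neighbour entered the Mettl23 value was not tested.

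**Figure D3:**
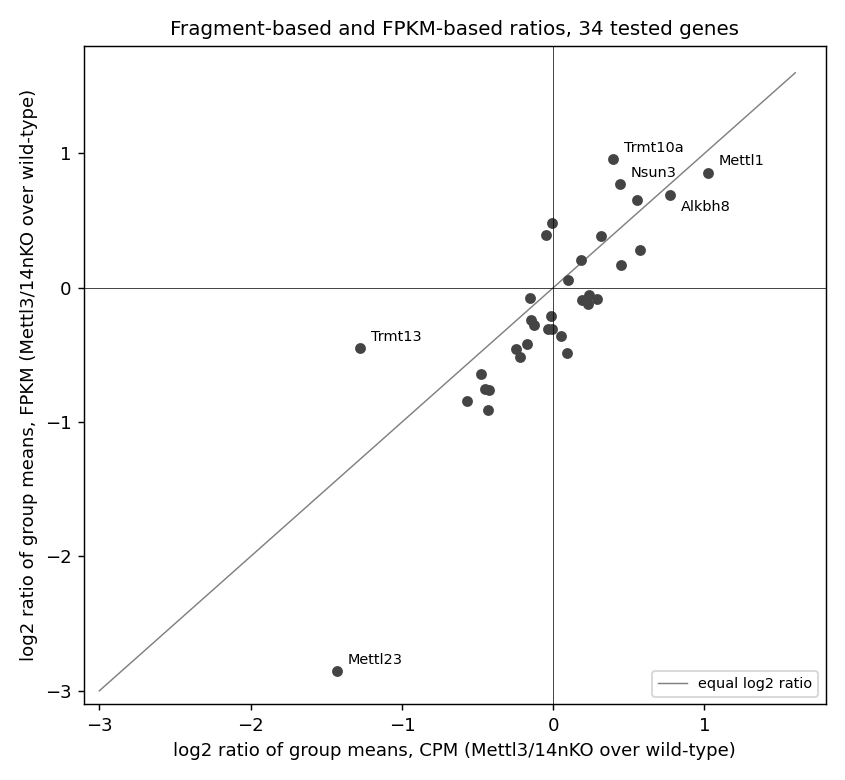
Log2 ratio of the Mettl3/14nKO mean to the wild-type mean for each of the 34 tested genes, from CPM (x axis) and from FPKM (y axis), with a grey line where both are equal. Mettl23 lies far below the line and Trmt13 above it, while the other genes lie nearer to the line, more of them below than above.

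Mettl1, the catalytic subunit of the enzyme that places 7-methylguanosine on tRNA, had the largest positive log2 fold change of the tested genes. Mettl1 (ENSMUSG00000006732, chromosome 10, 127041414 to 127046365) had 29 and 15 targeted against 21 and 8 wild-type fragments. In CPM this was 23.8 and 20.2 against 16.7 and 4.95, so that both targeted values lay above both wild-type values, but the wild-type libraries lay farther from each other than the lower targeted library from the higher wild-type library. In FPKM the groups overlapped, at 9.86 and 6.47 against 7.00 and 2.01. The log2 fold change was 1.09 (SE 0.49, 95% interval 0.02 to 2.16, edgeR adjusted p = 0.297). Mettl1 was called higher only when wild-type replicate 1 was left out, with a log2 fold change of 2.14. That fit called 2.32% of all genes higher. Its wild-type side was replicate 2 alone, the library with 8 Mettl1 fragments (4.95 CPM), so the call rested on that library. Without wild-type replicate 2 the log2 fold change of Mettl1 was 0.39. The first exons of Mettl1 share 100 bases with Mettl21b, a protein methyltransferase gene on the opposite strand that had 1 to 3 fragments in each library. Sequence before the start was taken for the 3 genes with an unadjusted edgeR p under 0.05. Of these, Trmt13, described further on, had the smallest p of the 34 tested genes. All 250 bases of the Mettl23 window lie in annotated exons, so no Mettl23 stretch is shown. The longest exon-free stretch of the RefSeq window before the Mettl1 start (GRCm38.p6, chr10:127041722-127041931, plus strand) is shown here, beside that of Trmt13. This RefSeq start lies downstream of the first GENCODE start of Mettl1, so the stretch falls within the gene span given here, outside annotated exons.
Mettl1: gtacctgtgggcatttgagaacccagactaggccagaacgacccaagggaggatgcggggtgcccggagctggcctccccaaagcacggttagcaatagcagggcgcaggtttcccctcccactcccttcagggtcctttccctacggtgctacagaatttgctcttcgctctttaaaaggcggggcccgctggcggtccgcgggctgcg
Trmt13: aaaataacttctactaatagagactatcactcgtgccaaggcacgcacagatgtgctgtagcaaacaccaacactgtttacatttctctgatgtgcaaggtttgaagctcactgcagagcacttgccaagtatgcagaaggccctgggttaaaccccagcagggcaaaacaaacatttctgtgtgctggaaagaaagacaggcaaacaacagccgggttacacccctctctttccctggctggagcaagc
The Trmt13 stretch is the whole window of 250 bases before the more upstream of its 2 RefSeq starts (chr3:116614588-116614837, minus strand). The Mettl1 stretch of 210 bases has a G and C content of 62.4%, and the Trmt13 stretch one of 48.0%. Neither holds CCAAT or GGGCGG on either strand, so no letters are in capitals; of all 32851 RefSeq windows of 250 bases, 33.8% hold CCAAT and 32.7% hold GGGCGG, and of the 49 windows that 41 of the 55 genes have, 28.6% and 40.8%.

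**Figure D4:**
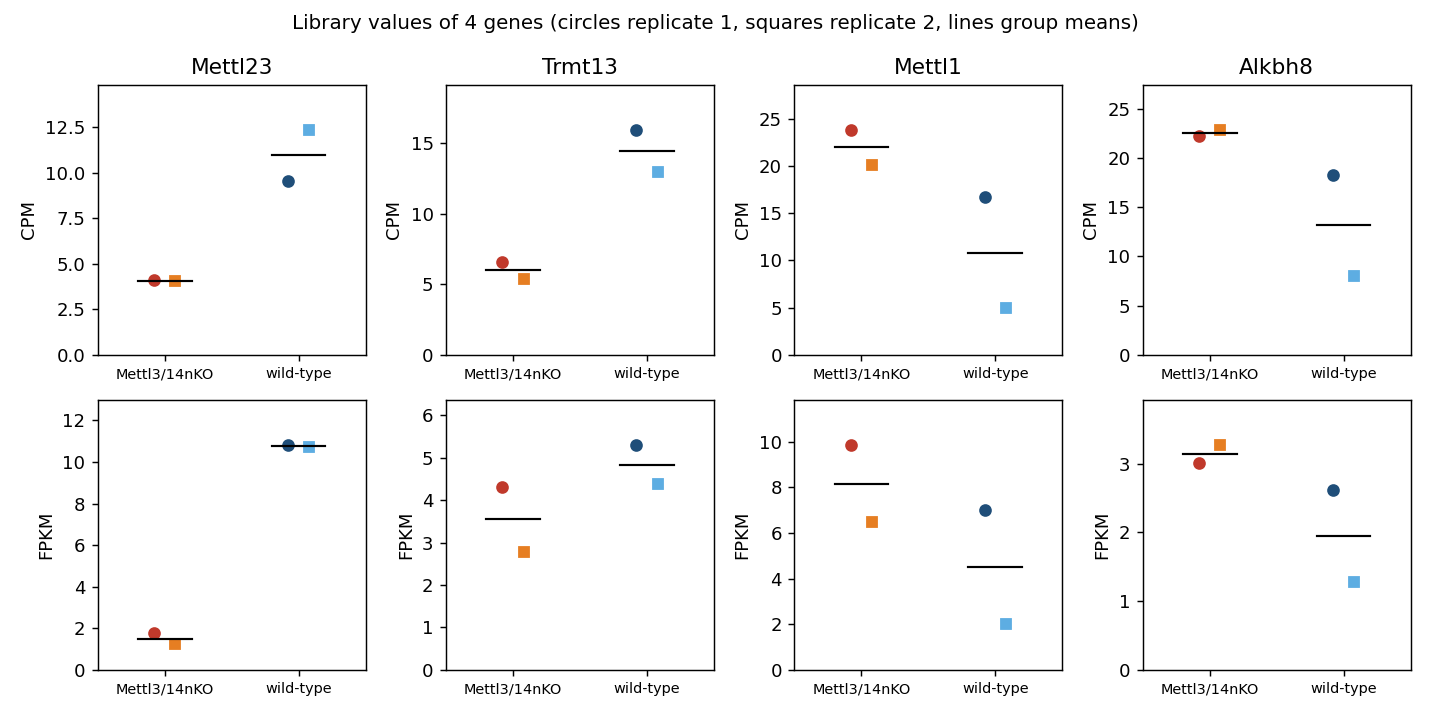
Values of Mettl23, Trmt13, Mettl1 and Alkbh8 in each library, in CPM (upper row) and FPKM (lower row), with circles for replicate 1, squares for replicate 2 and lines at the group means. Mettl23 has a wider gap between genotypes in FPKM than in CPM and Trmt13 a narrower one, and for Mettl1 and Alkbh8 the wild-type replicates lie far apart.

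The other tested Mettl genes had smaller values. Mettl9 had 79 and 58 targeted against 75 and 106 wild-type fragments, with a log2 fold change of 0.16 (95% interval -0.27 to 0.60, edgeR adjusted p = 0.783), so that the interval excludes a change of 1 log2 unit in either direction. Mettl10 had 15 and 14 against 23 and 38 fragments (-0.49, SE 0.38, edgeR adjusted p = 0.614). In FPKM its targeted values of 7.61 and 9.64 lay below the wild-type values, while in CPM the groups overlapped. Mettl6, which places 3-methylcytosine on serine tRNA, had 24 and 25 against 24 and 27 fragments, and once scaled to depth its log2 fold change was 0.52 (SE 0.36, edgeR adjusted p = 0.565). Mettl17, a mitochondrial protein needed for the assembly of the small mitochondrial ribosomal subunit, had 23 and 18 against 26 and 37 fragments (-0.05, SE 0.33, edgeR adjusted p = 0.969). The remaining tested Mettl genes were Mettl2 (a 3-methylcytosine writer of tRNA), Mettl4 (which methylates a small nuclear RNA of the spliceosome), Mettl5 (an m6A writer of ribosomal RNA), Mettl13 (which methylates eEF1A), Mettl18 (which methylates a ribosomal protein) and Mettl25. They had log2 fold changes of -0.57 to 0.24 and edgeR adjusted p of 0.627 to 0.994. Over the 13 tested Mettl genes the median was -0.24 (-0.39 on the limma scale), with 4 positive and 9 negative values.

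Mettl7a1 was the one copy of a tandem array on chromosome 15 with more than 1 fragment. It had 35 and 31 targeted against 47 and 95 wild-type fragments, or 28.8 and 41.7 against 37.4 and 58.7 CPM. The groups overlap in CPM, and the log2 fold change was -0.51 (SE 0.30, 95% interval -1.16 to 0.15, edgeR adjusted p = 0.475). Its copy Mettl7a3 had 1 fragment, in targeted replicate 1, and Mettl7a2 is listed at 0 in every library. Their coding sequences of 732 bases are 99.0% identical to each other and 94.7% (Mettl7a2) and 94.3% (Mettl7a3) identical to that of Mettl7a1. The sources used here do not say how fragments that fit several copies were counted, so the division among the copies is uncertain.

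Among the Trmt genes, Trmt13 had the smallest p. Trmt13 (ENSMUSG00000033439, chromosome 3, 116581093 to 116614587, minus strand), which methylates the ribose of tRNA near the amino-acid end, had 8 and 4 targeted against 20 and 21 wild-type fragments. In CPM this was 6.58 and 5.38 against 15.9 and 13.0, with no overlap. The stretch before its more upstream start is the one printed above beside that of Mettl1. The log2 fold change of Trmt13 was -1.23 (SE 0.49, 95% interval -2.29 to -0.17, edgeR adjusted p = 0.221). In FPKM the gap nearly closed, at 4.31 and 2.78 against 5.30 and 4.37, with a limma log2 fold change of -0.38 (SE 0.32, adjusted p = 0.658). A Trmt13 fragment was worth 1.04 log2 units more FPKM in targeted than in wild-type libraries, the opposite of Mettl23. Exons of Trmt13 share 389 bases with Sass6 on the opposite strand, which had 14 and 11 against 16 and 19 fragments, and 820 with Lrrc39, which is listed at 0.

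The log2 fold changes of the other tested Trmt genes lay closer to 0. Trmt2b, which makes 5-methyluridine on mitochondrial RNA, had 40 and 26 against 27 and 40 fragments, or 32.9 and 34.9 against 21.5 and 24.7 CPM. The genotypes do not overlap in that unit, and the log2 fold change was 0.53 (SE 0.29, 95% interval -0.09 to 1.16, edgeR adjusted p = 0.414). Its cytosolic relative Trmt2a stood at 46.9 and 47.0 against 38.2 and 37.1 CPM (log2 fold change 0.31, SE 0.25, edgeR adjusted p = 0.624). Trmt1, the dimethylguanosine writer of many tRNAs, stood at 49.3 and 32.3 against 31.9 and 27.8 CPM (0.49, SE 0.29, edgeR adjusted p = 0.472). In that gene targeted replicate 1 stood apart and the other 3 libraries were close together. Trmt6, the partner of Trmt61a in the 1-methyladenosine enzyme of cytosolic tRNA, had a log2 fold change of 0.19 (95% interval -0.34 to 0.72), Trmt61a of -0.07 (-1.25 to 1.11), Trmt112 of -0.12 (-0.84 to 0.60) and Trmt1l of -0.07 (-0.77 to 0.64). Trmt10a, the 1-methylguanosine writer linked to diabetes in people, had 16 and 6 against 14 and 8 fragments, too few to place its log2 fold change of 0.49 more closely than -0.70 to 1.68. The Trmt10a groups overlapped in CPM. In FPKM both targeted values were the higher ones, at 1.94 and 4.01 against 1.38 and 1.68 (limma log2 fold change 0.60, adjusted p = 0.571). The other tested Trmt genes, Trmt10b, Trmt10c, Trmt12 and Trmt44, had log2 fold changes of -0.24 to 0.18 and edgeR adjusted p of 0.876 to 0.976. Over the 13 tested Trmt genes the median was 0.08 (-0.039 on the limma scale), with 7 positive and 6 negative values.

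None of the 4 tested 5-methylcytosine writers of the Nsun family passed, and their median log2 fold change was 0.20 (0.13 on the limma scale). Nsun2 had 85 and 40 targeted against 71 and 95 wild-type fragments, or 69.9 and 53.8 against 56.6 and 58.7 CPM, so that the wild-type values fall between the targeted values. Its log2 fold change was 0.12 (95% interval -0.34 to 0.58, edgeR adjusted p = 0.869). Nsun3, which methylates the mitochondrial methionine tRNA, stood at 15.6 and 22.8 against 13.5 and 14.8 CPM (0.38, SE 0.39, edgeR adjusted p = 0.718). Both targeted values were the higher ones here, also in FPKM. Nsun4, which acts in the mitochondrial ribosome and is the sum of 2 table entries of that name, had 17 and 9 against 12 and 19 fragments (0.29, edgeR adjusted p = 0.831), and Nsun5, a writer of the large ribosomal RNA, had 8 and 7 against 13 and 10 (-0.07, edgeR adjusted p = 0.976).

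Of the 4 Alkbh genes tested with edgeR, Alkbh8 had the log2 fold change farthest from 0. Alkbh8 (ENSMUSG00000025899, chromosome 9, 3335140 to 3391154) joins a dioxygenase to a methyltransferase and completes wobble uridines of tRNA. It had 27 and 17 targeted against 23 and 13 wild-type fragments, or 22.2 and 22.8 against 18.3 and 8.04 CPM. The targeted libraries lie close together and above both wild-type libraries, which are far from each other. The log2 fold change was 0.80 (SE 0.43, 95% interval -0.12 to 1.73, edgeR adjusted p = 0.396). It moved to 1.47 without wild-type replicate 1 (edgeR adjusted p = 0.159) and to 0.28 without wild-type replicate 2 (0.895). Alkbh1, a demethylase of tRNA in mitochondria and elsewhere, had 49 and 41 against 70 and 78 fragments (-0.15, 95% interval -0.70 to 0.39, edgeR adjusted p = 0.851). Alkbh3, which repairs alkylated bases, had 22 and 9 against 18 and 31 (-0.13, edgeR adjusted p = 0.928), and Alkbh6 had 15 and 9 against 18 and 15 (0.07, edgeR adjusted p = 0.971).

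Grouped by substrate instead of by name, the values were as follows. Of 16 tested genes of cytosolic tRNA, 10 had positive log2 fold changes and 6 negative ones (median 0.15), and of 6 tested genes of mitochondrial RNA 4 were positive (median 0.23). All 3 genes of ribosomal or small nuclear RNA, Mettl4, Mettl5 and Nsun5, were negative (median -0.32), as were 4 of 5 tested genes of protein methylation (median -0.42). These signs were the same under the 3 other scalings of the fragments, while on the limma scale, where all genes had a median of -0.21, the median was 0.075 for cytosolic tRNA, -0.044 for mitochondrial RNA, -0.54 for ribosomal or small nuclear RNA and -0.56 for protein methylation. None of these genes passed, and the medians stand beside 0.00 for all genes tested, without a test of the groups. Summed over all 19 genes of cytosolic tRNA, the level was 436 and 406 CPM in targeted and 396 and 347 CPM in wild-type islets, and for the 8 of mitochondrial RNA it was 145 and 190 against 159 and 152. The cytosolic sums do not overlap, but the gap between genotypes is smaller than the distance between the wild-type libraries, and the mitochondrial sums overlap.

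The 21 genes outside the test had at most 37 fragments over all 4 libraries. Of these, Mettl7a2, Mettl7b, Mettl11b, Mettl21c and Mettl21e are listed at 0 in every library. At 4833469 fragments over both genotypes, counting error alone allows a level of up to 0.621 CPM (3 fragments). For Mettl7a2 this sets no bound, since the division of fragments among the Mettl7a copies is uncertain. Exons of Mettl7a2 also share 508 bases with Methig1 on the same strand. The other 16 had at least 1 fragment. Alkbh7, a mitochondrial dioxygenase, had 7 and 2 targeted against 13 and 10 wild-type fragments, and Trmt11, which with Trmt112 methylates guanosine in tRNA, had 1 and 4 against 9 and 18. Both had the targeted values below the wild-type values without overlap, in CPM and in FPKM, and were singled out after their values were seen. The reverse held for Alkbh2, a repair enzyme with 9 and 3 against 3 and 4 fragments, and for Mettl21b, with 2 and 3 against 1 and 2. Of all genes tested with limma, 35.4% were lower and 9.83% higher without overlap in FPKM. The share among genes with this few fragments was not counted, so these genes are not set apart from others. In limma the adjusted p was 0.289 for Alkbh7, 0.422 for Trmt11 and 0.547 for Alkbh2. Mettl8, a 3-methylcytosine writer of mitochondrial tRNA, had 3 and 5 against 20 and 9 fragments. Its groups overlapped both in CPM, at 2.47 and 6.72 against 15.9 and 5.56, and in FPKM, at 1.70 and 3.85 against 4.56 and 2.36. The rest were Alkbh4, Mettl15, Mettl20, Mettl21a, Mettl21d, Mettl22, Mettl24, Mettl7a3, Nsun6, Nsun7 and Trmt5.

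A fixed list of genes with other names, made of RNA methyltransferases, their partners and related genes, gave a like result. Not every gene of this list encodes an RNA methylation enzyme. Of 40 genes of the list found in the table, 29 were tested and 0 were called higher or lower with edgeR, against 3.71% of all genes. Of the 29, 0 had an unadjusted p under 0.05, against 15.9%. DESeq2 called 0 of 38 (0 at the unadjusted threshold) and limma 0 of 35 (1 at that threshold, against 12.1% of all genes). That gene was Wbscr22, a writer of ribosomal RNA, with 23.2 and 33.0 targeted against 15.1 and 9.31 wild-type FPKM (limma log2 fold change 1.15, adjusted p = 0.255) but overlapping CPM (edgeR log2 fold change 0.60, adjusted p = 0.475). With edgeR the list had 18 positive and 11 negative log2 fold changes between -0.80 and 0.71 (median 0.13). The 4 with the smallest p were Lcmt2, an enzyme of wybutosine synthesis (-0.80, edgeR adjusted p = 0.342), the mRNA cap methyltransferases Cmtr1 (-0.33, 0.376) and Pcif1 (0.38, 0.392), and Hsd17b10, a subunit of mitochondrial RNase P that works with Trmt10c (0.71, 0.395). Named after their values were seen, Wdr4, the partner of Mettl1 in the 7-methylguanosine enzyme, had 31 and 11 against 20 and 37 fragments (0.09, edgeR adjusted p = 0.953), and Cdkal1, the diabetes gene, 52 and 31 against 32 and 54 (0.50, edgeR adjusted p = 0.414). For both the units differed. Cdkal1 was higher without overlap in CPM but overlapped in FPKM (limma log2 fold change -0.094). Wdr4 overlapped in CPM but was higher without overlap in FPKM (limma log2 fold change 0.41). The tested genes of this list, like the 34 tested genes of the 4 families, therefore gave no call in either direction.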

How the data were processed

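The deposited table holds values per gene for 4 libraries, made per the labels from total RNA with a directional kit after ribosomal RNA removal. Its estimated counts, deposited by the authors, are not whole numbers; 92.3 to 93.2% of those above 0 were whole multiples (tolerance 0.01) of a step particular to the library. Dividing by the step (0.968 and 1.33 for the Mettl3/14nKO and 0.982 and 0.835 for the wild-type libraries) and rounding gave fragments. FPKM were deposited by the authors and used unchanged. According to the submitters' processing notes, the tools included cutadapt 1.9.3, HISAT2 2.0.4, Cuffdiff and Cufflinks, with build mm10. Strand setting and annotation release are not given in these sources, so genes sharing exons (23 of the 55) may hold fragments of a neighbour. Values of 1 symbol were summed. The test was edgeR 4.0.16 (R 4.3.3; TMM factors, filterByExpr, quasi-likelihood) over all genes, two-sided, with Benjamini-Hochberg adjustment at 0.05. DESeq2 1.42.0 and limma 3.58.1 (trend, log2(FPKM + 1), mean FPKM of at least 1) were alternatives. Only the edgeR step was tested on simulated counts. The replicates of a genotype differed beyond sampling noise, with a chi-square of 2.30 (Mettl3/14nKO) and 2.29 (wild-type) per degree of freedom. The members, lists and tests were chosen with earlier results of these data known. Genes named in full were Mettl3, Mettl14, Mettl23, the Mettl7a copies and, per family, the 4 tested genes with the highest wild-type FPKM and the 4 with the smallest p, and the 4 genes of the list of other names with the smallest p. Other genes named were singled out by count or after their values were seen. All 55 gene identifiers were found in GENCODE M21 (GRCm38, the build mm10). Upstream sequences are from RefSeq (GRCm38.p6).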

Additional observations from a re-analysis of the deposited data

How the results depend on the processing

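No setting made a gene of the 4 families fall, and 1 of 15 made a gene rise (Mettl1, without wild-type replicate 1). Over all genes the calls numbered 93 higher and 50 lower with DESeq2, 469 and 388 when edgeR ran without a filter, and 0 and 0 with limma at either pseudocount or without a filter (1477 at an unadjusted p of 0.05 in the filtered fit at a pseudocount of 1), against 230 and 176; with 1 library left out they ranged from 44 to 390 higher and from 31 to 285 lower, the most without Mettl3/14nKO replicate 2 (390 and 285) and the fewest without wild-type replicate 2 (44 and 31), with 135 higher without Mettl3/14nKO replicate 1. In those fits the lone library of a group is assumed to vary like the other group. Genes of the families that rose ranged from 0 to 1 with 1 library left out. Their median log2 fold change of -0.04 was -0.15 with limma on log2(FPKM + 1), -0.11 with a pseudocount of 0.1, -0.13 without a filter, 0.074 over genes with a mean of 10 fragments, 0.027 with the replicate block and 0.020 to 0.13 with 1 library left out, so its sign is not settled. The cause of these shifts was not tested, except that leaving out a library or filtering changes which genes enter. Libraries of the same replicate number shared little deviation over the genes (correlation 0.04). This cannot tell whether they share a litter or batch of weak effect. The replicate block changed no call among the named genes. Small changes turned sign: with limma, at pseudocounts of 1 (with and without a filter) and 0.1, Alkbh6 to -0.30 and -0.34, Mettl9 to -0.079 and -0.083, Nsun4 to -0.049 and -0.067 and Nsun5 to 0.24 and 0.29; with the replicate block Trmt1l to 0.025. With 1 library left out, Alkbh1 ranged from -0.38 to 0.10, Alkbh3 from -0.47 to 0.10, Alkbh6 from -0.24 to 0.39, Mettl17 from -0.23 to 0.15, Nsun2 from -0.092 to 0.26, Nsun5 from -0.42 to 0.32, Trmt112 from -0.34 to 0.024, Trmt1l from -0.42 to 0.47, Trmt6 from -0.0093 to 0.39 and Mettl3 from -0.91 to 0.26. Alkbh8 ranged from 0.28 to 1.47, while Mettl23 stayed between -1.58 and -1.22 and Trmt13 between -1.39 and -1.09 in those fits. Depth limits all of this: the median tested gene had 78.5 fragments over 4 libraries.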
